A study of Mus musculus with 2 samples.

Results

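TNF (tumour necrosis factor) and 8 relatives, 3 further ligand genes and 5 receptor genes, were followed across cells from tissue around the mouse cribriform plate, the perforated bone between the nose and the brain. The 9 genes were taken as a fixed list of TNF family ligands and receptors, and all 9 are among the 31053 genes of the deposited count matrix. They were read in every cell in which 200 or more genes were found and mitochondrial transcripts made up no more than 20%, which were 1922 cells of the library with barcode suffix 2 and 3406 cells of the library with suffix 1, or 5328 of 6272 barcodes. The study compared EAE, an autoimmune encephalomyelitis that serves as a mouse model of multiple sclerosis, with health. The EAE group was 1 pool of cells from 5 wild-type C57BL/6J mice and the healthy group 1 pool from another 5 of that strain, all of them females aged 10 weeks. The sources used here do not give how EAE was induced or at which stage the mice were taken. The tissue was broken up mechanically and also held olfactory bulb and nasal mucosa. The sort aimed at lymphatic endothelial cells of the meninges, taken as podoplanin and CD31 positive and CD45 negative, with dead cells and doublets gated out.

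No label ties barcode suffix 2 or 1 to EAE or healthy mice, so the libraries are called library 2 and library 1 and no condition is compared. Each is 1 pool with no replicate, and no test was possible. Intervals are exact 95% intervals that cover counting error only, and a ratio between the libraries compares these libraries. Library 2 held 20282053 and library 1 25766058 unique molecular identifiers (UMIs, counted transcripts) in kept cells, with medians of 9782.5 per cell in library 2 and 7334 in library 1, and 7 kept barcode sequences occurred in both libraries. The transcripts went against the sort label. The 7 microglia markers were all detected and summed to 3254 CPM (UMIs per 1000000 UMIs) in library 2 and 9506 CPM in library 1, whereas 7 lymphatic endothelial markers together reached 6.90 CPM in library 2, where Mmrn1 and Reln were at 0 UMIs, and 28.3 CPM in library 1. Of 17 clusters, built without the 9 members and the lists of pathway genes given below, 8 were called microglia-like by their markers. Clusters 4, 5, 7 and 9 held the 1630 microglia-like cells of library 2, and clusters 1, 2, 3 and 8 all but a few of the 2714 of library 1. A list of 12 immediate early and heat shock genes, which dissociation can induce, had a summed level of 16021 CPM in library 2 against 49505 CPM in library 1, and median mitochondrial shares were 3.74% in library 2 and 1.54% in library 1. Monocyte markers, all 5 of which were detected in both libraries, were higher in library 2, with a sum of 73.1 CPM in library 2 against 10.8 CPM in library 1, and within microglia-like cells with 68.3 CPM in library 2 against 3.55 CPM in library 1, where Ly6c2 and Chil3 were at 0 UMIs. These differences run alongside every ratio between the libraries given here, and their part in it was not tested.

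TNF is made by microglia and macrophages as a membrane protein that the protease ADAM17 can release, and it acts through TNFR1 (Tnfrsf1a), found on most cells, and TNFR2 (Tnfrsf1b), found mainly on immune and endothelial cells. TNFR1 and Fas carry a death domain and can start cell death, while most receptors of the family recruit TRAF adaptors and switch on NF-kappaB. In the brain, microglia are a main source of TNF, and the ligand has been studied widely in EAE.

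Tnf, Tnfrsf1a and Tnfrsf1b, the ligand and its own receptors, differed by at most 1.24-fold. Tnfsf13b, Tnfsf10 and Tnfrsf14 were 4.67-fold, 2.80-fold and 2.49-fold higher in library 2, and Tnfrsf12a was 7.45-fold higher in library 1. With every cell thinned to 1000 UMIs, Tnfrsf14 was no longer past 2-fold. To show where these genes start, the 250 bases before the transcription start are given for Tnf and for the 3 genes with the largest ratios, from RefSeq's promoter table (GRCm38.p6), 5′ to 3′ on the strand of the gene, with motif matches in capitals. Tnf lies on the minus strand, at chr17:35202008-35202257. Tnfsf13b lies on the plus strand and has 2 listed starts, of which the window of the second, at chr8:10006383-10006632, is shown. Tnfsf10 is on the plus strand at chr3:27316827-27317076, and Tnfrsf12a on the minus strand at chr17:23677450-23677699.
Tnf: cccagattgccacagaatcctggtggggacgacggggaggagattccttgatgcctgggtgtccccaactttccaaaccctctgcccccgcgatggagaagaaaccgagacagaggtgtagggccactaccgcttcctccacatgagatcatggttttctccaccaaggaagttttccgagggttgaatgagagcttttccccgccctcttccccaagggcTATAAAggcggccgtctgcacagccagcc
Tnfsf13b: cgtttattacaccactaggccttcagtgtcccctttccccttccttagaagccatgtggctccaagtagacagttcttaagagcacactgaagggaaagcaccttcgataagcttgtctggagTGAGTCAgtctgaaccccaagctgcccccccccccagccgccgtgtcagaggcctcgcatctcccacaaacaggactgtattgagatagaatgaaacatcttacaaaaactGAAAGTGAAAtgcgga
Tnfsf10: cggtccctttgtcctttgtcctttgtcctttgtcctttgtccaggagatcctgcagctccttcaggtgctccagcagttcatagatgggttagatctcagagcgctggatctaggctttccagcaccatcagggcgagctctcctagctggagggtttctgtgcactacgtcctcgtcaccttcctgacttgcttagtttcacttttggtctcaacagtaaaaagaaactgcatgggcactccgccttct
Tnfrsf12a: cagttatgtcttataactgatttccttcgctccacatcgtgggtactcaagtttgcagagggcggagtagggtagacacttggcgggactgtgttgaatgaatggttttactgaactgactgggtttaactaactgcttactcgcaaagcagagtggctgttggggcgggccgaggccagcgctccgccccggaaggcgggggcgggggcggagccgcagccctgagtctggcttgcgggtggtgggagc

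The windows were searched on both strands for 6 motifs. The capitals mark a TATA box (TATAAA) 29 to 24 bases before the start of Tnf, and in Tnfsf13b an AP-1 motif (TGANTCA) 127 to 121 bases and an interferon-stimulated response element (on the other strand) 16 to 7 bases before the start. Of 32851 such windows in the table, 12.4% held the TATA box, 6.75% the AP-1 motif and 2.98% the interferon-stimulated response element. The CRE (TGACGTCA, 1.55% of windows), the interferon gamma-activated site (TTCNNNGAA, 7.02%) and the NF-kappaB consensus (7.25%) were also searched, and no marked matches overlapped. The windows of Tnfsf10 and Tnfrsf12a, and the first window of Tnfsf13b, held no match, which says only that these letters do not occur in them. Of the 8 members with a window in the table, Tnfrsf14 and Tnfrsf1b also held the interferon-stimulated response element, Tnfrsf1a, Fas and Tnfrsf1b the interferon gamma-activated site, and Fas the AP-1 motif. A match is a description of the letters and not evidence that a factor binds there.

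Among the ligands, Tnf (ENSMUSG00000024401) stood at 406 CPM in library 2 (8243 UMIs, interval 398 to 415) and at 328 CPM in library 1 (8445 UMIs, 321 to 335). The level was 1.24-fold higher in library 2 (1.20 to 1.28), with a log2 ratio of 0.30 after 10 CPM was added to each level, the scale of every log2 ratio here. In microglia-like cells alone the ratio was 1.23-fold, at 423 CPM in library 2 and 345 CPM in library 1. The share of kept cells with a UMI of Tnf was 71.4% in library 2 (1373 of 1922; 69.4% to 73.4%) and 64.7% in library 1 (2205 of 3406; 63.1% to 66.3%). With every cell thinned to 1000 UMIs, to take out the difference in depth, the shares were 26.3% in library 2 (24.3% to 28.3%) and 23.0% in library 1 (21.6% to 24.5%), and their intervals overlapped. Thinning left out 15 cells of library 2 and 87 of library 1 that were too shallow.

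Tnfsf13b (ENSMUSG00000031497) encodes BAFF, a survival factor of B cells. Its level was 67.4 CPM in library 2 (1367 UMIs, 63.9 to 71.1) and 14.4 CPM in library 1 (372 UMIs, 13.01 to 15.98), 4.67-fold higher in library 2 (4.16 to 5.25; log2 ratio 1.66). The share of kept cells with a UMI was 44.0% in library 2 (41.8% to 46.3%) and 9.78% in library 1 (8.80% to 10.8%). After thinning it was 7.29% in library 2 (6.16% to 8.55%) and 1.51% in library 1 (1.12% to 1.98%). At 1000 UMIs per cell, Tnfsf13b alone of the 9 members had the higher share in library 2 with intervals apart, and Tnfrsf12a alone the higher share in library 1. At 2000 UMIs per cell, Tnfsf10 joined Tnfsf13b, with 2.90% of cells in library 2 (2.19% to 3.76%) and 1.38% in library 1 (1.01% to 1.84%).

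Tnfsf10 (ENSMUSG00000039304) encodes TRAIL, a ligand that can start cell death. It stood at 15.5 CPM in library 2 (315 UMIs, 13.9 to 17.3) and 5.55 CPM in library 1 (143 UMIs, 4.68 to 6.54), 2.80-fold higher in library 2 (2.29 to 3.43; log2 ratio 0.72). The share of kept cells with a UMI was 13.1% in library 2 and 3.73% in library 1. Thinned, it was 1.21% in library 2 (0.766% to 1.80%) and 0.572% in library 1 (0.345% to 0.893%), and the intervals overlapped. Tnfsf9 (ENSMUSG00000035678), the gene of the costimulatory ligand 4-1BBL, was sparse, at 2.81 CPM in library 2 (57 UMIs, 2.13 to 3.64) and 5.20 CPM in library 1 (134 UMIs, 4.36 to 6.16). Its level was 0.540 of that of library 1 (0.389 to 0.742). At 1000 UMIs per cell, 5 cells of library 2 and 15 of library 1 held a UMI of it.

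Among the receptors, those of TNF itself differed least. Tnfrsf1a (ENSMUSG00000030341) stood at 156 CPM in library 2 (3173 UMIs, 151 to 162) and 166 CPM in library 1 (4275 UMIs, 161 to 171), a ratio of 0.943 (0.900 to 0.987). It was detected in 75.9% of kept cells in library 2 and 68.9% in library 1, and after thinning in 16.3% in library 2 (14.6% to 18.0%) and 15.3% in library 1 (14.1% to 16.6%). Tnfrsf1b (ENSMUSG00000028599) stood at 63.6 CPM in library 2 (1290 UMIs, 60.2 to 67.2) and 62.9 CPM in library 1 (1620 UMIs, 59.8 to 66.0), a ratio of 1.01 (0.940 to 1.09). Of thinned cells, 7.13% in library 2 and 6.15% in library 1 held a UMI of it. For both receptor genes the direction of these small ratios turned under 2 settings each. With mitochondrial, ribosomal protein and haemoglobin genes left out of the totals, the log2 ratio of Tnfrsf1a was 0.04 in place of -0.08, and with no filter on cells that of Tnfrsf1b was -0.02 in place of 0.01.

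Tnfrsf12a (ENSMUSG00000023905) encodes Fn14, the receptor of the ligand TWEAK, and is known as a gene that injury and growth signals induce. It stood at 15.9 CPM in library 2 (322 UMIs, 14.2 to 17.7) and 118 CPM in library 1 (3046 UMIs, 114 to 122), a ratio of 0.134 (0.119 to 0.151; log2 ratio -2.31). A UMI was found in 13.7% of cells of library 2 (12.2% to 15.3%) and 41.4% of cells of library 1 (39.8% to 43.1%), and, thinned, in 2.10% in library 2 (1.503% to 2.85%) and 10.1% in library 1 (9.12% to 11.2%). Leaving out the cells in the highest 2% of UMIs of each library gave a log2 ratio of -2.315 in place of -2.309, within its counting interval. So few cells could hardly move such a ratio, and doublets can lie elsewhere, so their part was not tested.

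Fas (ENSMUSG00000024778), the receptor of Fas ligand, and Tnfrsf14 (ENSMUSG00000042333), which encodes the LIGHT receptor HVEM, were sparse. Fas stood at 6.85 CPM in library 2 (139 UMIs, 5.76 to 8.09) and 4.46 CPM in library 1 (115 UMIs, 3.68 to 5.36), 1.54-fold higher in library 2 (1.19 to 1.98). Tnfrsf14 stood at 5.13 CPM in library 2 (104 UMIs, 4.19 to 6.21) and 2.06 CPM in library 1 (53 UMIs, 1.54 to 2.69), 2.49-fold higher in library 2 (1.77 to 3.54), but its log2 ratio of 0.33 became 0.0598 at 1000 UMIs per cell, where 5 cells of library 2 and 7 of library 1 held a UMI. At 1000 UMIs per cell the intervals of their shares overlapped, with 0.524% of cells in library 2 and 0.392% in library 1 for Fas, and 0.262% in library 2 and 0.211% in library 1 for Tnfrsf14.

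Of the 9 members, all of which had at least 20 UMIs over both libraries, 3 were at least 2-fold higher in library 2, 1 was at least 2-fold lower and 5 lay within 2-fold. Over all 13891 genes with that many UMIs, 14.2% were at least 2-fold higher and 8.37% at least 2-fold lower in library 2, or 22.6% either way, and 52.5% were higher by any size, as were 6 of the 9 members. The median log2 ratio of the members was 0.22 and that of all genes tested 0.02. In microglia-like cells the members' counts were also 3 and 1, with 9.71% and 8.60% of 12145 genes past 2-fold in these directions (18.3% either way) and 48.5% higher by any size. With 9 members, such counts are read only as a description.

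**Figure D1:**
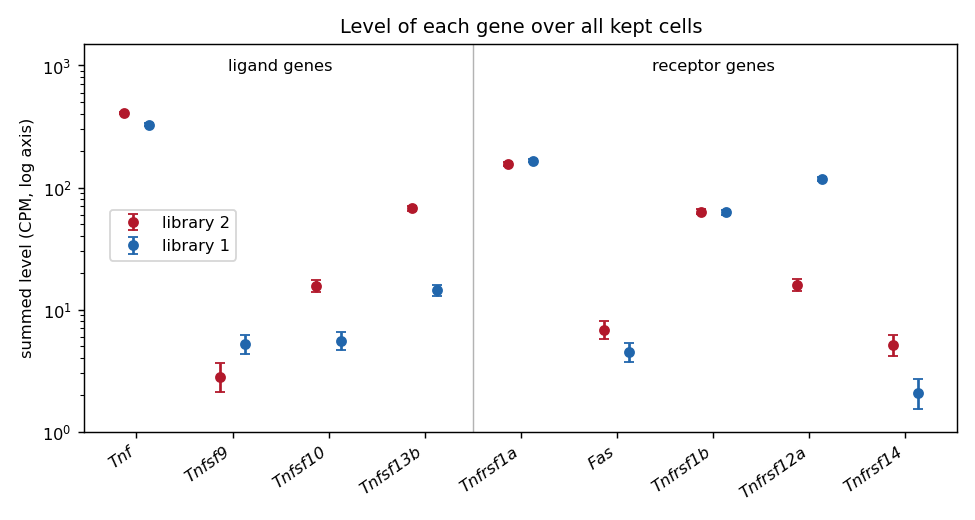
Summed level of each gene over all kept cells, in CPM on a log axis, in library 2 (red) and library 1 (blue); bars are exact 95% counting intervals and no replicate exists. Tnf, Tnfrsf1a and Tnfrsf1b lie close together in the libraries, Tnfsf13b and Tnfsf10 are higher in library 2, and Tnfrsf12a stands at 15.9 CPM in library 2 and 118 CPM in library 1.

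How far free RNA could account for detection was read from olfactory sensory neuron-like cells, a type that should lack most of these genes. Of the 37 such cells of library 2, with a median of 11227 UMIs, none held a UMI of Tnf, Tnfsf13b, Tnfrsf1a, Tnfrsf1b, Tnfsf9, Tnfsf10, Fas or Tnfrsf14, which allows a share of up to 8.11% for each, and 1 held a UMI of Tnfrsf12a (2.70%; 0.0684% to 14.2%). The 71.4% for Tnf, 75.9% for Tnfrsf1a, 44.9% for Tnfrsf1b and 44.0% for Tnfsf13b in kept cells of library 2 lie above that limit, and so does the 13.1% for Tnfsf10. The shares of Tnfsf9 (2.55%), Fas (6.35%) and Tnfrsf14 (5.25%) lie below it and are not told apart from background in this way, and neither is the 13.7% of Tnfrsf12a, which lies within the interval of its 1 neuron-like cell in 37. In library 1 there were 7 such cells, too few for a limit, and 1 of them held a UMI of Tnf. None of the 7 microglia markers reached 100 CPM in the cluster of these neurons, unlike in every other cluster. The limit thus holds for the neuron-like cells and may be too low for other classes.

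Tnf was also read in other cell classes, of which most held microglia transcripts too. In olfactory ensheathing glia-like cells, which wrap the fibres of olfactory neurons, Tnf was found in 26 of 58 cells of library 2 (44.8%; 31.7% to 58.5%) and 14 of 39 in library 1 (35.9%; 21.2% to 52.8%). These shares, at full depth, had overlapping intervals. The level of Tnf there was lower in library 2, at 191 CPM (155 to 233) against 295 CPM in library 1 (230 to 372). The ratio was 0.648 (0.473 to 0.892), from 98 UMIs in library 2 and 71 in library 1. This interval leaves out the uneven spread of Tnf over cells, so the difference is read only as a description. In the cluster of these cells, 6 of the 7 microglia markers reached 100 CPM. As many did in the fibroblast or mural-like and the sustentacular or epithelial-like clusters. In library 1, Tnf was found in 13 of 50 cells of the former (309 CPM, 249 to 378). It was found in 10 of 60 cells of the latter (70.9 CPM, 48.1 to 101), where 12 held Tnfrsf1a. The part of free RNA or joined cells in these values was not tested. In border macrophage-like cells, all 53 in library 1, Tnf stood at 293 CPM (247 to 345) and was found in 56.6% of cells (42.3% to 70.2%). Fas stood at 12.3 CPM there (6 UMIs, 4.51 to 26.8) and Tnfrsf1b at 69.6 CPM (48.2 to 97.3). The 96 cells of library 2 in cluster 10, which held no haemoglobin UMI although haemoglobin genes of its 36 library 1 cells led that cluster, had 10 UMIs of Tnf (24.0 CPM; 11.5 to 44.2) and 42 of Tnfrsf1a (101 CPM; 72.7 to 136).

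Within microglia-like cells, Tnf varied more between clusters of a library than between the libraries. In library 2, its level was 611 CPM in cluster 9 (573 to 651), led by interferon-induced genes such as Rsad2 and Ifit3. It was 547 CPM in cluster 7 (525 to 570), led by Cxcl9, 456 CPM in cluster 4 (441 to 473), led by MHC class II genes, and 202 CPM in cluster 5 (190 to 215), led by Apoc1 and Apoe. The intervals of these 4 clusters were all apart. In library 1 it was 494 CPM in cluster 2 (478 to 511), led by Gadd45b and with Il1a among its leading genes, 379 CPM in cluster 3 (364 to 394), led by Gdf15, 179 CPM in cluster 1 (168 to 189), led by Hspa1b and Hspa1a, and 121 CPM in cluster 8 (101 to 145), led by histone genes. These levels were all apart. Dividing cells of library 2 (83 cells, cluster 11) stood at 601 CPM (558 to 648), and cluster 6 of library 1 (354 cells), which stayed unnamed, at 241 CPM (223 to 260). All 7 microglia markers reached 100 CPM in cluster 6. It stayed unnamed because the dendritic cell marker Fscn1 was among its 10 highest folds, and it is left out of the microglia-like values.

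The receptors of TNF did not follow the ligand over these clusters. Tnfrsf1a ranged from 136 CPM in cluster 7 to 187 CPM in cluster 9 of library 2, and from 149 CPM in cluster 2 to 200 CPM in cluster 8 of library 1. Tnfrsf1b ranged from 50.6 CPM in cluster 7 to 79.8 CPM in cluster 5 of library 2, and from 61.0 CPM in cluster 2 to 70.8 CPM in cluster 8 of library 1. In library 1 the cluster with the highest Tnf thus had the lowest levels of both receptor genes among the microglia-like clusters. The one with the lowest Tnf had the highest, although for Tnfrsf1b those intervals (55.3 to 67.1 and 55.2 to 89.5) overlapped. Tnfrsf1b was also nearly equal in clusters 2 and 3, at 61.0 and 61.3 CPM. For Tnfrsf1a the interval of cluster 8 (173 to 230) overlapped that of cluster 1 (175 to 196). In library 2 the lowest receptor levels lay in cluster 7 and not in cluster 9. Cluster 9, with the highest Tnf there, also had the highest Tnfrsf1a (166 to 210), which overlapped that of cluster 5 (170 to 195).

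Tnfrsf12a was graded in library 1 and nearly flat in library 2. It stood at 205 CPM in cluster 2 (194 to 216), 120 CPM in cluster 3 (112 to 129), 64.9 CPM in cluster 1 (58.9 to 71.4) and 25.3 CPM in cluster 8 (16.4 to 37.3), the same order as Tnf. In library 2 it lay between 13.8 CPM in cluster 5 (10.7 to 17.5) and 23.9 CPM in cluster 9 (16.9 to 32.9). The interval of cluster 9 in library 2 overlapped that of cluster 8 of library 1. The 10 cells of library 1 that fell in cluster 9 stood higher, at 249 CPM (38 UMIs in 6 of the cells, 176 to 342). With so few cells, 1 cell can weigh heavily, which the interval does not cover. The 12 immediate early and heat shock genes summed to 50470, 55103, 49278 and 25436 CPM in clusters 2, 3, 1 and 8 of library 1, and to 18815, 12330, 22945 and 13408 CPM in clusters 9, 7, 4 and 5 of library 2. Their part in the level of Tnfrsf12a or Tnf was not tested.

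In microglia-like clusters with at least 50 cells in a library, Tnfsf10 had its highest level in the interferon-led cluster of library 2. It stood at 50.4 CPM in cluster 9 (80 UMIs in 138 cells, 39.96 to 62.7) and between 11.1 and 13.4 CPM in clusters 7, 4 and 5, whose intervals overlapped. Of the library 2 cells of cluster 9, 37.7% (52 of 138) had a UMI of Tnfsf10. In the other microglia-like clusters of library 2, 10.7% to 12.6% of the cells had one. The 10 cells of library 1 that fell in cluster 9 stood at 72.2 CPM of Tnfsf10 (11 UMIs in 7 of the cells, 36.0 to 129). Among microglia-like clusters with at least 50 cells in a library, Tnfsf13b was higher in each of library 2 than in any of library 1. It stood at 99.5 CPM in cluster 7 (90.4 to 109), 76.2 CPM in cluster 9 (63.2 to 91.1), 66.5 CPM in cluster 4 (60.5 to 72.9) and 45.1 CPM in cluster 5 (39.3 to 51.6), against 12.9 to 24.3 CPM in library 1. The same 10 cells of library 1 in cluster 9 stood at 65.6 CPM of Tnfsf13b (10 UMIs in 4 of the cells, 31.5 to 120.6). Among these clusters, Fas was highest in cluster 9 of library 2 (14.5 CPM; 9.18 to 21.7) and in cluster 2 of library 1 (9.70 CPM; 7.5003 to 12.3), and lay at 1.54 to 2.56 CPM in clusters 1, 3 and 8. Tnfsf9 was highest in cluster 2 of library 1 among them, at 8.38 CPM (57 UMIs, 6.34 to 10.9). Tnfrsf14 ran from 1.60 to 10.1 CPM over all these clusters, with its highest level in cluster 9.

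**Figure D2:**
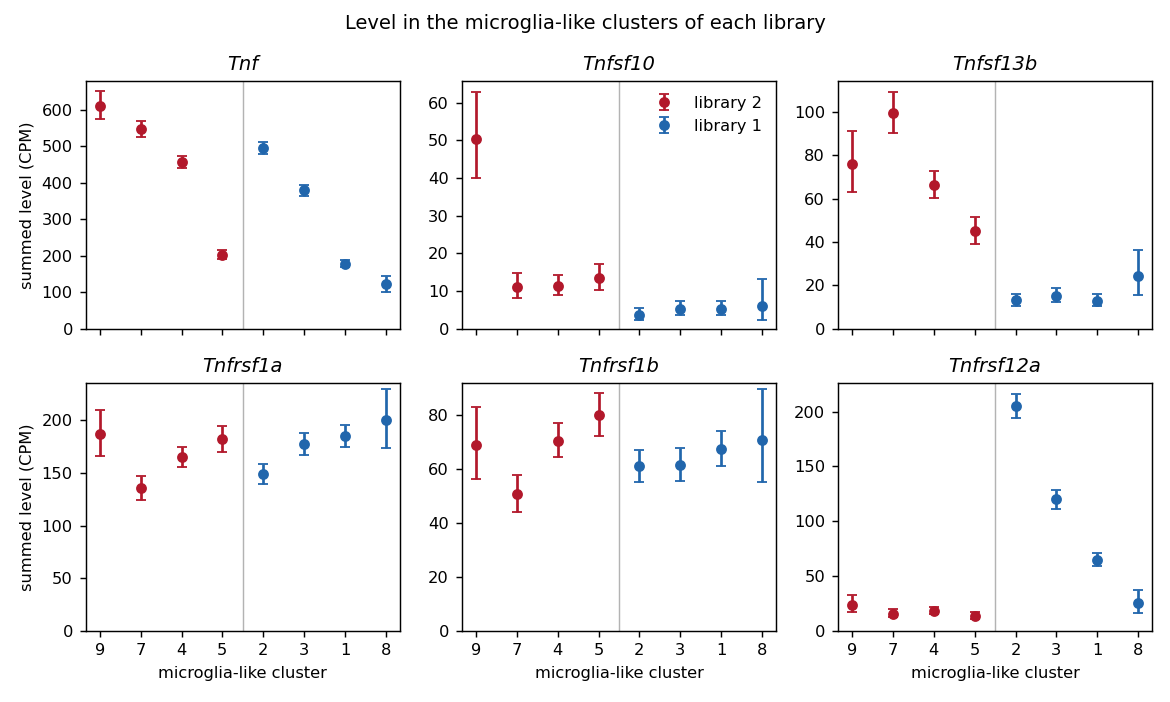
Summed level in CPM of 6 genes in the microglia-like clusters of library 2 (red; clusters 9, 7, 4 and 5) and library 1 (blue; clusters 2, 3, 1 and 8), with exact 95% counting intervals. Tnf is graded within both libraries, Tnfsf10 is highest in cluster 9 at 50.4 CPM, Tnfsf13b is at 45.1 CPM or above in each cluster of library 2, and Tnfrsf12a is graded from 205 to 25.3 CPM in library 1.

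Tnf was unevenly spread over single cells. In library 2, 243 cells held 10 or more UMIs of Tnf and the highest held 111, against 158 cells and a highest count of 66 in library 1. The 10% of cells with the most Tnf held 45.1% of its UMIs in library 2 and 45.4% in library 1, whereas for Tnfrsf1a the figures were 28.7% in library 2 and 29.5% in library 1. Since deeper cells hold more of every gene, the spread was also read at 1000 UMIs per cell, as the variance over the mean, which is 1 for pure counting error. For Tnf it was 1.56 in microglia-like cells of library 2 and 1.38 in those of library 1, against 0.938 in library 2 and 0.984 in library 1 for Tnfrsf1a. The values were 0.999 in library 2 and 1.02 in library 1 for Tnfrsf1b, and 0.998 in library 2 and 0.986 in library 1 for Tnfsf13b. Within single microglia-like clusters, the value for Tnf was between 1.23 and 1.76 in library 2 and between 1.04 and 1.64 in library 1. For Tnfrsf12a it was 0.979 in library 2 and 1.18 in library 1, where the highest cell held 26 UMIs.

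**Figure D3:**
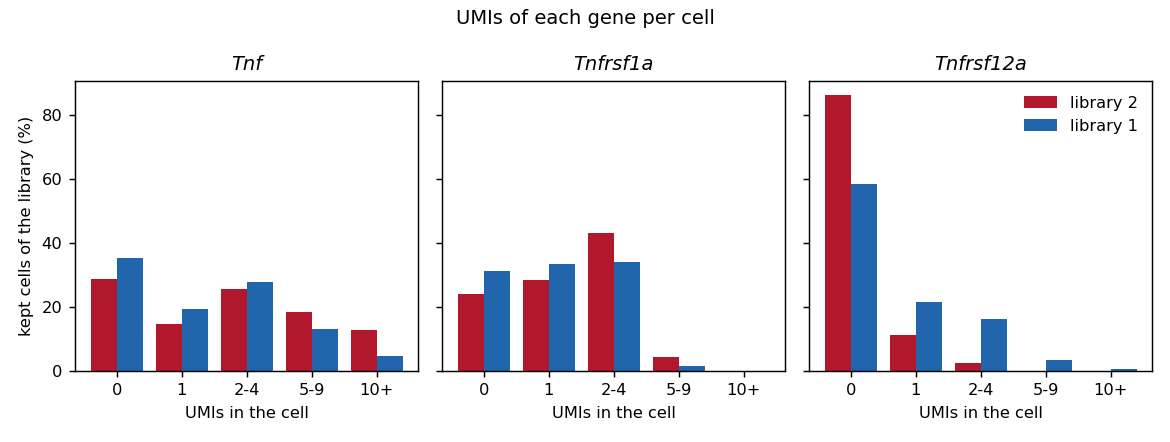
Share of kept cells, in percent, by the number of UMIs of Tnf, Tnfrsf1a and Tnfrsf12a in the cell, in library 2 (red) and library 1 (blue), at full depth. Cells with 10 or more UMIs of Tnf make up 12.6% of library 2 and 4.64% of library 1, whereas Tnfrsf12a had no UMI in 86.3% of cells in library 2 and 58.6% in library 1.

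Tnf met the transcripts of its own receptors and of Tnfrsf12a in the same cells about as often as their shares alone would give. At 1000 UMIs per cell, Tnf and Tnfrsf1a were found together in 87 of 1907 cells of library 2, where the product of the shares gives 81.4, and in 108 of 3319 cells of library 1, where it gives 117. Tnf and Tnfrsf1b met in 34 cells of library 2 (35.7 from the shares) and 50 of library 1 (47.0). Tnf and Tnfrsf12a met in 10 cells of library 2 (10.5 from the shares) and 85 of library 1 (77.4). Some sparser pairs join a ligand gene with the receptor gene of another ligand. Tnf and Fas met in 3 cells of library 2 (2.63 from the shares) and 7 of library 1 (2.996). Tnfsf13b and Tnfrsf1a met in 21 cells of library 2 (22.6) and 3 of library 1 (7.67). At this depth a UMI of 2 or more members was held by 11.7% of the cells in library 2 and by 10.1% in library 1. Doublets that passed the sort were not sought cell by cell and can add to such counts.

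Partner genes did not all differ in the same direction. Ligands and receptors known to bind each other were set side by side over all kept cells. Tnfsf12, which encodes TWEAK, the ligand of the Tnfrsf12a product, stood at 61.9 CPM in library 2 and 44.2 CPM in library 1, a ratio of 1.40 (1.29 to 1.52), where Tnfrsf12a had 0.134. Of the BAFF receptors, Tnfrsf13b (TACI) stood at 50.3 CPM in library 2 and 61.6 CPM in library 1 and Tnfrsf17 (BCMA) at 5.42 CPM in library 2 and 42.9 CPM in library 1, a ratio of 0.126 (0.103 to 0.154), opposite to Tnfsf13b. Tnfrsf13c, the BAFF receptor of mature B cells, had 0 UMIs in library 2 and 2 UMIs in library 1, where 0 UMIs allow up to 0.148 CPM. Tnfrsf10b, the TRAIL death receptor, had 16 UMIs in library 2 and 9 UMIs in library 1, and Tnfrsf23, a mouse decoy receptor of TRAIL, stood at 9.12 CPM in library 2 and 20.3 CPM in library 1, a ratio of 0.450 (0.379 to 0.533). Fasl had 0 UMIs in both libraries, which allows a level of 0.148 CPM in library 2 and of 0.116 CPM in library 1. Tnfrsf9, the receptor of 4-1BBL, had 7 UMIs in library 2 and 6 UMIs in library 1, and Tnfsf14, which encodes LIGHT, had 14 UMIs in library 2 and 6 UMIs in library 1.

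Of the other TNF superfamily ligand genes, 5 of 14 had at least 20 UMIs, of which 2 were at least 2-fold higher in library 2 (14.2% of all genes), 1 was at least 2-fold lower (8.37%) and 2 lay between. Tnfsf8, the ligand of CD30, stood at 7.15 CPM in library 2 and 1.01 CPM in library 1 (7.08-fold; 4.64 to 11.2), and Ltb, the gene of lymphotoxin beta, at 7.74 CPM in library 2 and 14.5 CPM in library 1. Of 22 other receptor genes, 13 had at least 20 UMIs, of which 4 were at least 2-fold higher, 2 at least 2-fold lower and 7 between, where 14.2% of all genes were at least 2-fold higher and 8.37% lower. In microglia-like cells 2 of 12 were at least 2-fold higher and 2 lower, and Tnfrsf19 had 0 UMIs there in both libraries. Cd40, a costimulatory receptor of antigen-presenting cells, stood at 24.2 CPM in library 2 and 1.44 CPM in library 1, 16.9-fold higher in library 2 (12.1 to 24.2). Ltbr, the lymphotoxin beta receptor gene, stood at 56.8 CPM in library 2 and 56.9 CPM in library 1, Tnfrsf11a (RANK) at 50.8 CPM in library 2 and 49.9 CPM in library 1, and Tnfrsf21 at 57.6 CPM in library 2 and 78.9 CPM in library 1. Of the rest past 2-fold, Tnfrsf4, Tnfrsf10b and Tnfrsf19 were under 2 CPM in both libraries, as were Tnfsf14 and Tnfsf18 among the ligands.

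Of 20 genes of adaptors and kinases that assemble on the receptors, 1 was at least 2-fold higher in library 2, 1 at least 2-fold lower and 18 lay between, with a median log2 ratio of -0.01. Over all genes 22.6% were past 2-fold either way, and 10750 of 13891 lay between. Sharpin, a subunit of the linear ubiquitin ligase LUBAC, stood at 54.0 CPM in library 2 and 23.8 CPM in library 1 (2.27-fold; 2.05 to 2.51), and Traf1, an adaptor that NF-kappaB itself induces, at 2.27 CPM in library 2 and 6.36 CPM in library 1. Tab2 stood at 76.3 CPM in library 2 and 90.4 CPM in library 1, Ikbkb, the gene of the kinase IKK beta, at 77.4 CPM in library 2 and 60.6 CPM in library 1, and the inhibitor of apoptosis genes Birc2 at 65.8 CPM in library 2 and 65.4 CPM in library 1 and Birc3 at 57.3 CPM in library 2 and 62.9 CPM in library 1. Ripk1, the kinase at which survival and death signals of TNFR1 part, stood at 59.5 CPM in library 2 and 54.7 CPM in library 1.

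Of 11 genes that act as brakes on the receptor complex or on NF-kappaB, 4 were at least 2-fold lower in library 2. A further 7 lay between and 0 were at least 2-fold higher, where 8.37% of all genes were at least 2-fold lower. By any size 9 of the 11 were lower, beside 6596 of all 13891 genes, and the median log2 ratio was -0.64, beside 0.02 over all genes. Tnfaip3, the gene of the deubiquitinase A20, stood at 180 CPM in library 2 and 582 CPM in library 1 (ratio 0.310; 0.299 to 0.321). Nfkbia, which encodes an inhibitor that holds NF-kappaB in the cytoplasm, stood at 954 CPM in library 2 and 2661 CPM in library 1, and the related Nfkbib at 62.9 CPM in library 2 and 209 CPM in library 1. Tnip3 was the other gene past 2-fold, at 0.394 CPM in library 2 and 2.52 CPM in library 1, while Cyld, a further deubiquitinase, stood at 55.7 CPM in library 2 and 41.8 CPM in library 1 and Tax1bp1 at 116 CPM in library 2 and 199 CPM in library 1.

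Genes that carry the death signal lay within 2-fold for 9 of 10 members, with 1 at least 2-fold higher in library 2, beside 14.2% of all genes, and a median log2 ratio of 0.08. That gene was Mlkl, which forms the membrane pore of necroptosis, at 7.05 CPM in library 2 (143 UMIs) and 0.349 CPM in library 1 (9 UMIs), 20.2-fold higher in library 2 (10.3 to 45.0). Casp8, the initiator caspase of the death receptors, stood at 102 CPM in library 2 and 113 CPM in library 1, its regulator Cflar at 205 CPM in library 2 and 156 CPM in library 1, and Ripk3, the kinase that acts on MLKL, at 8.04 CPM in library 2 and 7.65 CPM in library 1. Bid stood at 47.5 CPM in library 2 and 43.0 CPM in library 1, and Daxx at 41.7 CPM in library 2 and 21.2 CPM in library 1.

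Of 13 genes that release TNF protein or control its messenger RNA, 1 was at least 2-fold higher in library 2, 1 at least 2-fold lower and 11 lay between, beside 14.2% higher and 8.37% lower of all genes, with a median log2 ratio of -0.13. Adam17, the TNF sheddase gene, stood at 91.1 CPM in library 2 and 75.3 CPM in library 1. Its partner Rhbdf2 (iRhom2) stood at 31.5 CPM in library 2 and 11.1 CPM in library 1, 2.82-fold higher in library 2 (2.45 to 3.26), and the related Rhbdf1 at 1.87 CPM in library 2 and 5.55 CPM in library 1. Zfp36, whose product tristetraprolin marks Tnf messenger RNA for decay, stood at 1873 CPM in library 2 and 2751 CPM in library 1, Zfp36l1 at 443 CPM in library 2 and 474 CPM in library 1 and Zfp36l2 at 345 CPM in library 2 and 344 CPM in library 1. Litaf stood at 105 CPM in library 2 and 149 CPM in library 1.

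Genes that TNF can induce went both ways. Of 21, 3 were at least 2-fold higher in library 2, 4 at least 2-fold lower and 14 between, beside 14.2% higher and 8.37% lower of all genes, with a median log2 ratio of -0.11. In microglia-like cells 3 of 20 were at least 2-fold higher and 2 lower, since Rela lay at a ratio of 0.5001 and Cxcl1 had under 20 UMIs. The chemokine gene Ccl5 was 26.4-fold higher in library 2 (838 CPM in library 2 and 31.7 CPM in library 1), Ccl2 4.30-fold (2625 CPM in library 2 and 611 CPM in library 1) and the adhesion gene Vcam1 5.16-fold (181 CPM in library 2 and 35.2 CPM in library 1). Lower in library 2 were Gadd45b (50.8 CPM in library 2 and 508 CPM in library 1), the NF-kappaB subunit genes Rel (135 CPM in library 2 and 545 CPM in library 1) and Rela (49.99 CPM in library 2 and 102 CPM in library 1), and Cxcl1 (2 UMIs in library 2 and 54 UMIs in library 1). Cxcl10 stood at 719 CPM in library 2 and 380 CPM in library 1, Ier3 at 430 CPM in library 2 and 834 CPM in library 1 and Cebpb at 689 CPM in library 2 and 676 CPM in library 1. Many of these genes answer to other signals as well, so the list does not measure TNF activity.

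**Figure D4:**
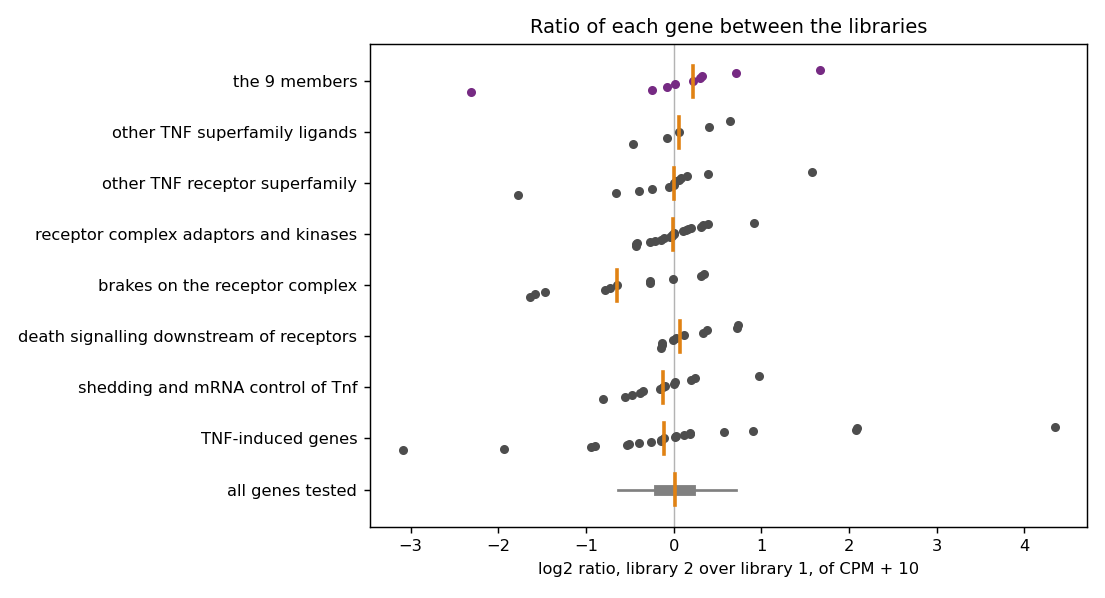
Log2 ratio of library 2 over library 1 (CPM with 10 added) for each gene with at least 20 UMIs, by list, with the list's median as an orange line; the lowest row gives the middle 50% (thick) and middle 90% (thin) of all 13891 genes tested, the latter from -0.64 to 0.71. Of the members, Tnfrsf12a (-2.31) and Tnfsf13b (1.66) lie outside that range, and Tnfsf10 (0.7153) lies at its upper edge (0.7095). The list labelled brakes on the receptor complex, which also holds NF-kappaB inhibitor genes, has the lowest list median (-0.64).

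The genes most like each member in pattern were sought among 7729 genes over 16 clusters of at least 50 cells, 7 of library 2 and 9 of library 1, by Pearson's r of log2 levels. These units share their library and differ in depth and cell type, so r is a description. Tnf was most like Etv3 (r = 0.940; 0.960 within the clusters of library 2 and 0.908 within those of library 1), followed by Eprs, Pim1, Baz1a and Osm (0.912 to 0.921). Tnfrsf12a was most like Dusp8 (0.976), then Ddx6, Adamts1, Tgif2 and Trim47. Tnfsf13b was most like Ly9 (0.962), followed by the MHC class II chaperone genes H2-DMb1 and H2-DMa, the integrin gene Itgax and Bcl2a1a, but within the clusters of library 2 alone the value for Ly9 was 0.557.

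Tnfsf10 was most like Phf11a (0.896), Isg20 and Rsad2, followed by Phf11d and Nmi. For Rsad2, a leading gene of cluster 9, r was 0.933 within library 2 and 0.507 within library 1. Tnfsf10 stood at 50.4 CPM in cluster 9 of library 2 and at 19.9 CPM or less in the other clusters compared, so r rests largely on cluster 9. In the microglia-like clusters of library 1 it lay between 3.67 and 6.07 CPM, under the 10 CPM added. Tnfrsf1a was most like Nhlrc3 (0.952), the leukocyte tetraspanin gene Cd37 (0.945) and Inpp5d, a lipid phosphatase gene (0.938). Among the 5 genes most like Tnfrsf1b were Akna (0.948) and Tbxas1 (0.941), and Fgd2 was among the 5 most like genes of both TNF receptor genes. For Tnfsf9, Fas and Tnfrsf14, which hardly exceeded the 10 CPM added to each level, the highest values were 0.808, 0.767 and 0.902, and with so few UMIs these are not read further.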

How the data were processed

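The authors deposited 1 matrix of raw UMI counts per gene and barcode, whose header names software version 3.1.0, per the file headers. Cell Ranger, bcl2fastq and UMI-tools are named in the submitters' processing notes. The sources used here do not give the genome build, the annotation or any equalisation of depth, which would change shares of cells more than CPM. Barcode suffixes were not mapped to a group, so the designed comparison was not made. Counts were summed per library or cluster and scaled to CPM. Intervals are exact Poisson (CPM), exact binomial (shares) and exact conditional binomial (ratios), at 95%, and where no UMI was seen the level of 3 counts is given as the limit. UMIs limit amplification bias, but intervals cover counting error only.

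Barcodes under 200 genes or over 20% mitochondrial UMIs were left out. The others were clustered with Scanpy 1.11.5 and igraph 0.11.9 (2000 variable genes, 30 principal components, 15 neighbours, Leiden at resolution 1), leaving out the members and pathway lists. A cluster took the name of the one marker list with at least 3 genes among its 50 highest folds. With no such list, it was microglia-like when 5 of 7 markers reached 100 CPM. Neither name was given where another list had more markers among the 10 highest folds. A shallow cluster with no marker of its name among those 10 also stayed unnamed. Clusters rest on transcripts and may differ from the authors' own. The sort gated out doublets, per the labels, and no doublet caller was run. Alternatives were another cell filter, pseudocount, total, depth, fold and cell class, cells without the highest 2% of UMIs, and the mean over cells. The ratios were checked on simulated data.

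The members, lists and naming rule were chosen with earlier results of these data known. Named genes were the members, list genes past 2-fold or among the 4 highest in CPM, and the 5 most like genes per member, of which some are not reported here. Partner genes outside that rule (Fasl, Tnfrsf9, Tnfrsf13c and others), Ripk1, Cyld, Ripk3, Daxx and Adam17 were chosen after their values were seen, as was the list of 12 immediate early and heat shock genes.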

Additional observations from a re-analysis of the deposited data

Results flagged for a closer look

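Barcodes left out by the cell filter were used in no comparison, and a few of them held UMIs of the members above the 3 counts taken as the limit. In the 512 barcodes left out of library 2, Tnfrsf1a had 20 UMIs (20.2 CPM; 12.3 to 31.2), Tnf 5 and Tnfrsf1b 5. In the 432 left out of library 1, Tnfrsf12a had 7 UMIs (13.9 CPM; 5.59 to 28.7), Tnfrsf1a 5, Fas 5 and Tnf 4. Tnf stood at 5.05 CPM in the barcodes left out of library 2 and at 7.95 CPM in those of library 1, against 406 and 328 CPM in kept cells.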

How the results depend on the processing

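No paired analysis was possible because each group is 1 pool and no suffix is tied to a group. Members at least 2-fold higher in library 2 numbered 3, 2 after thinning to 1000 UMIs, where Tnfrsf14 was lost, and 4 at 1.5-fold. Members at least 2-fold lower became 2 in place of 1 without the highest 2% of UMIs, after thinning to 1000 UMIs and at 1.5-fold. Members with a higher share in library 2 and intervals apart became 7 on all UMIs and 2 at 2000 UMIs per cell, in place of 1. Of 72 member log2 ratios under alternatives, 56 stayed within their counting interval, 68 kept their sign, and no member past 2-fold turned. A pseudocount of 1 CPM gave -0.70 for Tnfsf9, 1.34 for Tnfsf10, 2.15 for Tnfsf13b, 0.52 for Fas, -2.82 for Tnfrsf12a and 1.003 for Tnfrsf14, since it shrinks low levels less. Totals without mitochondrial, ribosomal protein and haemoglobin genes gave 0.42 for Tnf, 1.81 for Tnfsf13b, 0.0367 for Tnfrsf1a and 0.12 for Tnfrsf1b, while the median of all genes shifted by 0.05. Thinning to 1000 UMIs gave 0.50 for Tnfsf10, 1.78 for Tnfsf13b, 0.0697 for Tnfrsf1a, 0.18 for Tnfrsf1b, -1.99 for Tnfrsf12a and 0.0598 for Tnfrsf14, on fewer UMIs. Tnfrsf1b also changed sign without a cell filter (-0.02) and without the highest 2% of UMIs (-0.0029). The median of the other ligands was 0.46 with a pseudocount of 1 CPM and 0.20 in microglia-like cells, and that of the brakes -0.77 with a pseudocount of 1 CPM. The causes of shifts not named here were not tested. Depth limits Tnfsf9, Fas and Tnfrsf14 most.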
